A study of Mus musculus with 12 samples.

Results

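The early response genes described here are 3 EGR genes (Egr1, Egr2 and Egr3), 4 KLF genes (Klf2, Klf4, Klf6 and Klf10) and a pair of immediate early response genes (Ier2 and Ier3). Every region of open chromatin that the deposited table lists under one of these 9 gene names was taken, which gave 17 of the 81995 regions, of which 16431 carry a gene name. For each gene, the region whose centre lies closest to the listed transcription start was called its start site region, and the remaining 8 were numbered by distance. All 17 passed the filter on low values. Within these genes, regions were taken by the listed name and not by their values.

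Chromatin accessibility was assayed by ATAC-seq, in which the transposase Tn5 cuts and tags open DNA, in NIH/3T3, a line of immortalised fibroblasts from mouse embryos. Lines that differ at Actg1, the gene for cytoplasmic gamma-actin, were compared, and the series concerns transcriptional adaptation, a change in the output of other genes that follows the decay of a mutant mRNA. PTC1 cells carry a T inserted after position 280 of Actg1 in each labelled allele, one of which also holds the substitution A280G (positions counted as the genotype label counts them), and the labels place the premature stop codon in exon 3. PTC2 cells carry an insertion of 4036 nt after position 1096 of the transcript, with the premature stop codon in exon 5. LD cells lack the entire Actg1 locus, so no Actg1 RNA can be made. WT cells are wild type at Actg1. Each group had 3 libraries, each from 25000 cells transposed for 30 min at 37 °C, and no cells were labelled as serum-starved or stimulated. The labels name no separate clones, so a group may be 1 line per allele, and p-values measure the spread between these samples, which may be technical.

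EGR and KLF proteins are zinc finger transcription factors that bind GC-rich DNA. Many of them are switched on within minutes of a growth factor, serum or stress signal, before any new protein is made, through promoters driven by factors already present, such as serum response factor with its ternary complex partners downstream of the ERK kinase cascade. In fibroblasts, Egr1 is a standard marker of the serum response. Open chromatin at such a promoter marks its accessibility and is not a measure of its mRNA.

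The normalized read counts summed to 31.29 to 34.80 M (mega) per library, lowest in LD, and steps in the values put the reads behind them at an estimated 25.0 to 45.0 M. Of 16 fibroblast marker genes, 15 had a region (Dcn had none). Their median normalized read count was 1571.67 in PTC1, 1613.33 in PTC2, 1527.33 in LD and 1576.33 in WT. Their summed value was 22519 to 23449 for PTC1 libraries, below the 24900 to 25627 of WT libraries. PTC2 libraries summed to 25734 to 28242, above WT, and LD libraries to 25175 to 27218, overlapping with WT. Of these 15 markers, PTC1 had 4 called higher and 7 lower against WT. PTC2 had 5 called higher and none lower, and LD had 7 and 3. Markers of other cell types also differed between lines, and the part of any of these markers in the results below was not tested. Of 6 neural markers 4 had a region (Olig2 and Neurod1 had none), with a summed value of 1986 to 2132 in PTC1, 622 to 680 in PTC2, 799 to 868 in LD and 852 to 934 in WT libraries. The PTC1 sum was carried by Sox2 (mean 1025 in PTC1, against 23 in WT) and Syt1 (464 against 32.7), while Tubb3 was lower (511 against 824, adjusted p = 3.43e-09) and Snap25 was not called. Of 8 epithelial markers 5 had a region (Epcam, Cdh1 and Krt18 had none), with a summed value of 820 to 918 in PTC1, 1399 to 1447 in PTC2, 641 to 670 in LD and 796 to 842 in WT libraries. Krt5 carried the PTC2 sum (mean 930 in PTC2, against 194 in WT), and Krt14 and Cldn4 fell there (33.7 against 64.3, and 32 against 89).

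RefSeq promoter windows (mouse build GRCm38.p6, the assembly known as mm10, which the submitters' notes name) were found for 5 of the 9 genes, and all 4 shown here lie inside the start site regions whose values follow. The 250 bases before the RefSeq start are printed 5′ to 3′ on the strand of the gene, since these are the stretches measured as open, and capitals mark the motif letters found. Klf6 is at chr13:5861239-5861488 (plus strand), Klf2 at chr8:72318812-72319061 (plus), Klf4 at chr4:55532476-55532725 (minus) and Ier3 at chr17:35821463-35821712 (plus).
Klf6: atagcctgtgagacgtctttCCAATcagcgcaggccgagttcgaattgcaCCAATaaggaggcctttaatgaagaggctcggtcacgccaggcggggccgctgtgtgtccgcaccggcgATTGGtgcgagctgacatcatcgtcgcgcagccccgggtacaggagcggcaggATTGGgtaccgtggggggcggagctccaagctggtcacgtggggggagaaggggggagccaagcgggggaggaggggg
Klf2: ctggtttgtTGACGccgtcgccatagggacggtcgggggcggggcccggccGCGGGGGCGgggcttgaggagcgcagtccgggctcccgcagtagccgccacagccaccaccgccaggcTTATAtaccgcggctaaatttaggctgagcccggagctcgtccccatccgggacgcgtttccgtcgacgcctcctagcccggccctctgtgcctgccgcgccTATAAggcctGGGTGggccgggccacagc
Klf4: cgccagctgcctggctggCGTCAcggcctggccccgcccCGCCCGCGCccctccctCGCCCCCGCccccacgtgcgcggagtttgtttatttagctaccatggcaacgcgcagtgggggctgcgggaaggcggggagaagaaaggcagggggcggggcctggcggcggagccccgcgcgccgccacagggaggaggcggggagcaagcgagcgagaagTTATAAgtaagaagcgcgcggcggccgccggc
Ier3: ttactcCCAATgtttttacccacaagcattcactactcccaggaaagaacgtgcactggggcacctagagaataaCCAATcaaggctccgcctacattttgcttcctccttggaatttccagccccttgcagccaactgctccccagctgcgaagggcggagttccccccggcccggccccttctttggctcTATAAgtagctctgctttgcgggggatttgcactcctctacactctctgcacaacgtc
Both strands were searched for TATAAA, the CArG box bound by serum response factor, the EGR motif GCGNGGGCG, the KLF motif CACCC, the ETS motif CCGGAA and TGACG of the cyclic AMP response element. CCAAT and TATAA, which lies within TATAAA, were added after the sequences had been seen. The Klf6 window holds CCAAT 4 times, beginning 230, 200, 131 and 78 bases before the start, and none of the other letters. Klf2 has one GCGNGGGCG beginning at 199 bases, TGACG at 241, CACCC at 19 and TATAA at 131 and 29 bases before the start. Klf4 has GCGNGGGCG at 211 and 194 bases, TGACG at 232, and TATAA on both strands in overlapping letters at 32 and 31. Ier3 holds CCAAT at 244 and 175 bases and TATAA at 58 bases. Of all 32851 promoter windows of the same length, 4.7% hold GCGNGGGCG, 52.0% CACCC, 17.8% TGACG, 33.8% CCAAT, 22.8% TATAA, 12.4% TATAAA, 12.0% CCGGAA and 1.47% a CArG box. A match is a run of letters and not a measured site of binding.

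Klf6 was the gene that moved furthest and in the same way at more than one region: more open in PTC1, less so in PTC2, and less open than WT in LD at its start site. Egr3 moved in opposite directions in PTC1 and PTC2 at its start site region, which lies wholly upstream of the start. The PTC1 call there was lost after local centring. Egr1 was less open in every mutant on the deposited scale, and Ier3 lost accessibility mainly in PTC2. In PTC1 cells 11 of the 17 regions rose and 4 fell, against a background of 30.6% higher and 31.2% lower (61.8% in either direction) among all 81985 regions tested with limma at an adjusted p under 0.05. In PTC2 cells 8 rose and 4 fell, against 28.4% and 29.8% (58.2%) of all regions. In LD cells 1 rose and 6 fell, against 22.6% and 24.7% (47.4%). As a group the 17 had a median log2 change of 0.27 for PTC1, 0.19 for PTC2 and -0.12 for LD, beside 0.01, 0.02 and 0.01 over all regions. Taking the 9 start site regions alone, 5 rose and 3 fell in PTC1, against 33.3% and 28.5% (61.8%) of the 12337 start site regions of named genes. PTC2 had 4 higher and 3 lower, against 37.4% and 16.3% (53.8%), and LD had 1 higher and 4 lower, against 16.9% and 29.5% (46.4%). The median log2 change of these 9 in PTC2 was 0.11, close to the 0.10 over all start site regions. The wider gap seen in PTC2 with all 17 was therefore absent at start sites. For PTC1 the median of the 9 stood at 0.27 beside 0.03 over all start site regions, and for LD at -0.12 beside -0.05. The start site counts in PTC1 moved with centring, to 1 higher and 4 lower under local and 3 and 5 under chromosome centring. In PTC2 local centring gave 3 higher and 4 lower, and in LD 1 and 7. Shares of all start site regions after centring are not given here. Their median log2 change under local centring was 0.01 in PTC1, 0.06 in PTC2 and -0.07 in LD, and under chromosome centring 0.03 in PTC1.

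Whole stretches of a chromosome also differed between the lines, and the counts moved when this level was taken off. When each library was centred on the median of other regions within 1000000 bp (local centring, which leaves out those within 10000 bp), PTC1 had 4 member regions called higher and 6 called lower, PTC2 had 5 and 5, and LD had 1 and 9. The shares of all regions after local centring were 26.7% and 27.6% in PTC1, 26.1% and 28% in PTC2, and 19.7% and 22.4% in LD. Centring on whole chromosomes left 7 higher in PTC1, against 28.3% of all regions. Locally centred values are therefore given beside each gene, and the part of copy number or of long-range chromatin state in these differences was not tested. The comparisons of PTC1, PTC2 and LD with WT share the WT libraries, so their values stand side by side and their likeness is no result.

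**Figure D1:**
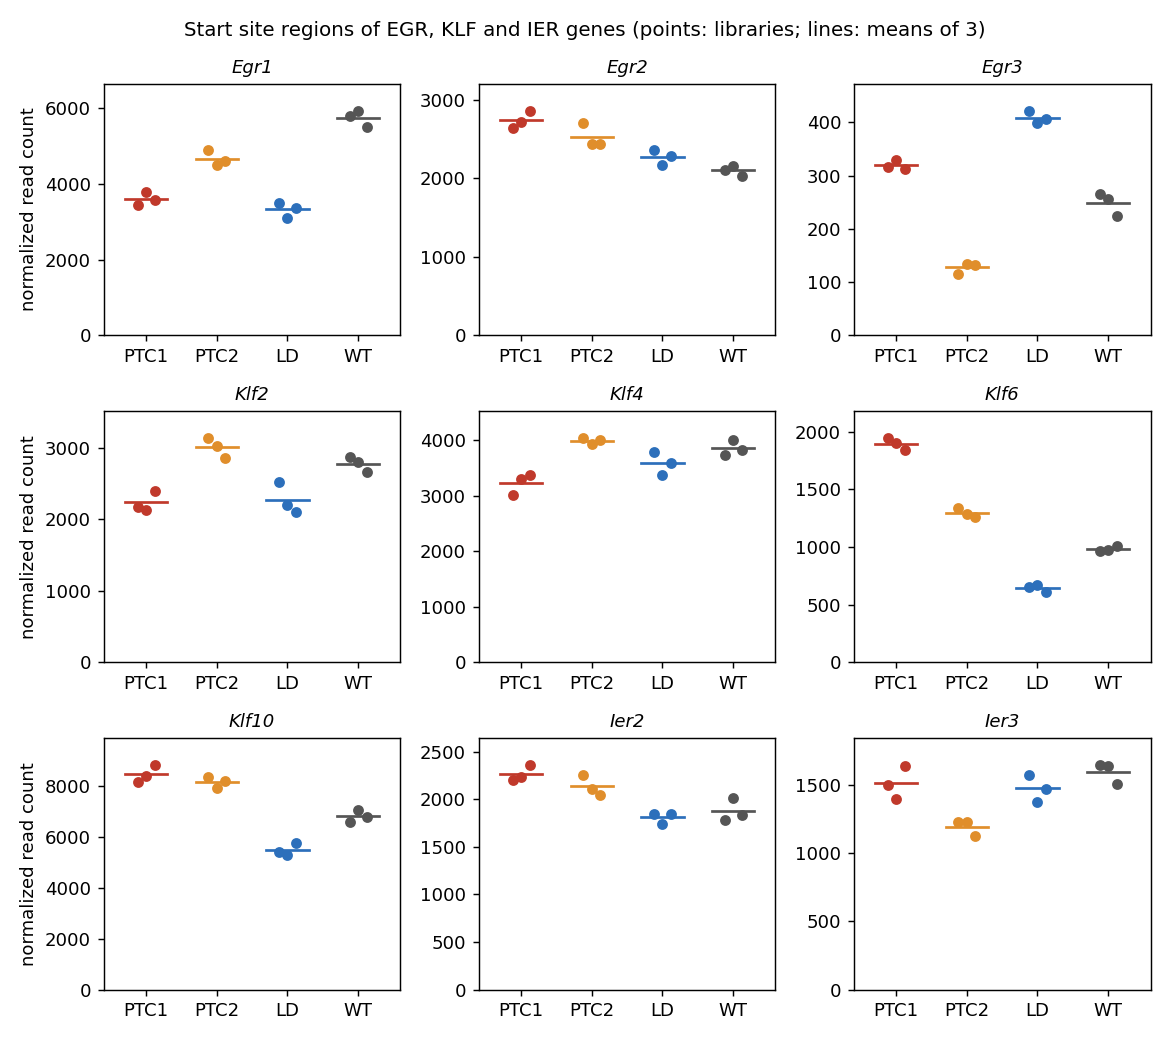
Normalized read count (y axis, from 0) at the start site region of each of the 9 genes in PTC1, PTC2, LD and WT, with a point per library and a line at the mean of 3. Klf6 libraries sit between 1836 and 1946 in PTC1 and between 614 and 669 in LD, either side of the WT libraries. Klf4 and Ier2 have the smallest ranges of group means among the 9, at 0.31 and 0.32 on the log2 scale.

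**Figure D2:**
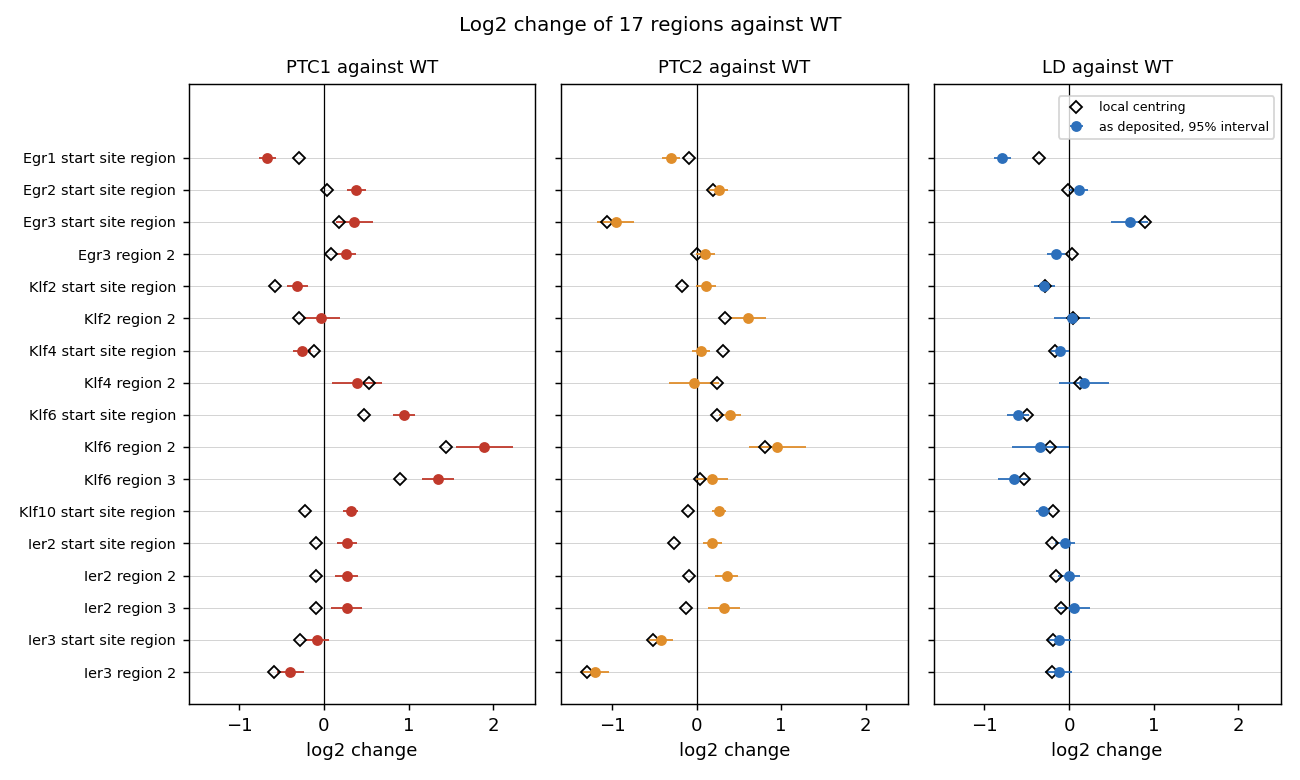
Log2 change against WT (x axis) of the 17 regions in PTC1, PTC2 and LD, with filled points for the deposited values, bars for 95% intervals and open diamonds for local centring. Klf6 region 2 reaches 1.90 in PTC1, Ier3 region 2 lies at -1.20 in PTC2, and the Klf10 diamond crosses to -0.23 in PTC1.

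Per kilobase of region, the openness of the start sites had a different order in each line. In PTC1 the mean normalized read count per kb was highest at Klf10 (3122 ± 125, SD, n = 3), followed by Klf6 (1893 ± 55.3) and Egr1 (1884 ± 90.4), whose libraries overlapped. In PTC2 it was highest at Klf10 (3013 ± 78.8) and then Egr1 (2435 ± 109), which overlapped with Klf2 (2395 ± 114). In LD, Klf10 (2026 ± 89.4) overlapped with Klf4 (1858 ± 105), and Klf6 (646 ± 29.1) was last of the 9. In WT, Egr1 came first at 2998 ± 117, above Klf10 at 2511 ± 85.1 and Klf2 at 2216 ± 84.8 without overlap, while Klf4 (1999 ± 69.4) and Ier3 (1970 ± 97.8) overlapped. Klf6 was seventh in WT at 982 ± 23.8, and Egr3 had the lowest value in PTC1, PTC2 and WT, at 608 ± 16.6, 243 ± 19.3 and 474 ± 40.7 per kb.

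Klf6, a broadly expressed zinc finger factor induced in injured and serum-treated cells, had 3 regions on chromosome 13. Its start site region (5860881 to 5861882), centred 100 bp upstream of the listed start, holds the CCAAT-bearing window printed above. It had 1946, 1902 and 1836 normalized reads in PTC1 cells, 1341, 1284 and 1260 in PTC2 cells and 658, 669 and 614 in LD cells, against 965, 974 and 1010 in WT cells. No library of any group overlapped with one of another: PTC1 was highest, then PTC2, then WT, and LD was lowest. By limma the log2 change was 0.95 in PTC1 (95% interval 0.82 to 1.07, adjusted p = 1.05e-13), 0.40 in PTC2 (0.27 to 0.52, adjusted p = 3.1e-06) and -0.60 in LD (-0.73 to -0.48, adjusted p = 3.57e-09). Local centring gave 0.48, 0.24 and -0.49, each still past the threshold.

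Region 2 of Klf6 (5863485 to 5863816), centred 2169 bp downstream of the start and inside the gene, had the largest rise among the 17. Its values were 311, 306 and 317 in PTC1 cells, 149, 163 and 173 in PTC2 cells and 60, 53 and 87 in LD cells, against 101, 75 and 75 in WT cells. Each library of PTC1 and of PTC2 was above each WT library, and LD overlapped with WT. The log2 change was 1.90 in PTC1 (adjusted p = 3.98e-11) and 0.95 in PTC2 (adjusted p = 1.22e-05), or 1.44 and 0.81 after local centring. In LD it was -0.34 and missed the threshold (adjusted p = 0.0885), but passed it at -0.55 without LD replicate 3, at -0.41 after scaling to the same median and at -0.42 under loess normalization.

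Region 3 of Klf6 (5865937 to 5866502), centred 4738 bp downstream, separated PTC1 from the rest. It held 840, 908 and 940 normalized reads in PTC1 cells, 384, 410 and 405 in PTC2 cells and 208, 231 and 233 in LD cells, against 365, 314 and 378 in WT cells. PTC1 libraries were far above any other, LD libraries were the lowest, and PTC2 lay just above WT. The log2 change was 1.35 in PTC1 (adjusted p = 2.68e-13) and -0.65 in LD (adjusted p = 1.2e-06), or 0.89 and -0.54 after local centring. In PTC2 it was 0.19 (95% interval -0.00 to 0.38, adjusted p = 0.0874), and it passed the threshold at 0.28 when libraries were scaled to the same median and at 0.24 under loess normalization.

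The rise in PTC1 was not the same over the Klf6 gene. The log2 ratio of region 2 to the start site region was 0.95 higher in PTC1 than in WT (adjusted p = 0.00283) and that of region 3 was 0.40 higher (adjusted p = 0.0106), in a fit over all 4092 pairs of another region and a start site region in the table, of which 44.5% were called in this comparison. For PTC2 the ratio of region 2 was 0.56 higher (adjusted p = 0.0456, against 40.6% called), a call that ended when any one of WT replicates 2 and 3 or PTC2 replicates 1 to 3 was left out (adjusted p up to 0.138). Directly between the mutants, the mean of PTC1 and PTC2 exceeded LD by 1.27 at the start site, 1.77 at region 2 and 1.41 at region 3 (adjusted p = 3.3e-18, 6.32e-12 and 2.61e-15). PTC1 exceeded PTC2 by 0.55, 0.94 and 1.16 at the same regions, and each of these 6 differences between the mutants also passed after local centring.

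The chromatin around Klf6 was also more open in PTC1. Of 8 regions within 50000 bp that are not listed with Klf6, 6 rose and none fell in PTC1, 6 rose and 1 fell in PTC2, and 2 rose and 3 fell in LD. In PTC1 those 6 had log2 changes of 0.88 to 1.66. A region singled out after its values were seen, at an offset of -16283 bp from the start site region, had means of 1023 in PTC1, 318 in PTC2, 523 in LD and 376 in WT, so it rose in PTC1 and LD (1.44 and 0.48) and fell in PTC2 (-0.24). Over the 89 regions used for local centring the median was 0.44 for PTC1, 0.23 for PTC2 and -0.11 for LD, whereas over all of chromosome 13 it was -0.15, 0.14 and -0.04.

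**Figure D3:**
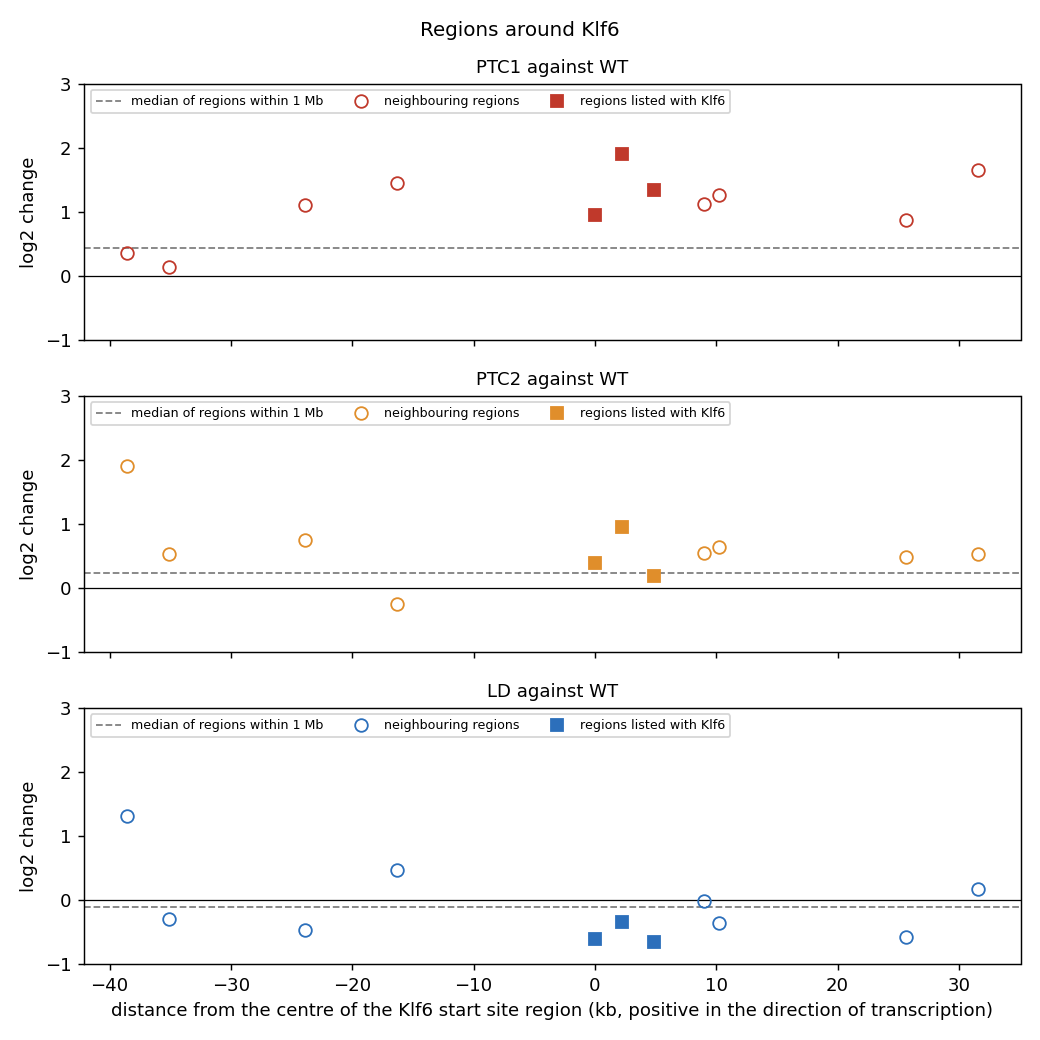
Log2 change against WT (y axis) of the Klf6 regions (filled squares) and of neighbouring regions (open circles) by distance from the centre of the Klf6 start site region (x axis, kb), in PTC1, PTC2 and LD. Dashed lines mark the median of regions within 1 Mb at 0.44, 0.23 and -0.11, and in PTC1 the squares and 6 of the 8 circles lie above the line.

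Klf10, which is induced by transforming growth factor beta and encodes a repressor, was higher in both premature stop lines and lower in LD on the deposited scale. Its region (chromosome 15, 38298849 to 38301554) had 8140, 8388 and 8811 normalized reads in PTC1 cells, 8346, 7923 and 8181 in PTC2 cells and 5409, 5280 and 5748 in LD cells, against 6567, 7027 and 6782 in WT cells. PTC1 and PTC2 overlapped with each other and lay above WT, and LD lay below WT. limma put the log2 change at 0.31 in PTC1 (adjusted p = 1.35e-07), 0.26 in PTC2 (adjusted p = 2.9e-06) and -0.31 in LD (adjusted p = 3.46e-07). The median change of regions within 1000000 bp was 0.53 in PTC1, 0.34 in PTC2 and -0.03 in LD, so the surroundings were also higher in the premature stop lines. Over all of chromosome 15 it was 0.44, 0.18 and -0.17. Local centring takes off the median of each library, which need not equal these medians of changes. Of the 8 neighbours within 50000 bp, 3 rose and 3 fell in PTC1 (median 0.04), 5 rose and 1 fell in PTC2, and 1 rose and 2 fell in LD. After local centring Klf10 was at -0.23 in PTC1 and -0.10 in PTC2 and kept its sign in LD (-0.19). Chromosome centring also turned PTC1 round, to -0.12, but left PTC2 higher at 0.10 (adjusted p = 0.0354). The mean of PTC1 and PTC2 exceeded LD by 0.60 (adjusted p = 7.81e-15), and by 0.03 after local centring (adjusted p = 0.597).

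Klf2, a factor tied to quiescence in endothelial and T cells, and Klf4, one of the reprogramming factors and a regulator of differentiation, were both less open in PTC1 at the start. The Klf2 start site region (chromosome 8, 72318542 to 72319797) had 2176, 2139 and 2398 normalized reads in PTC1 cells, 3142, 3020 and 2856 in PTC2 cells and 2520, 2208 and 2103 in LD cells, against 2878, 2797 and 2667 in WT cells. PTC1 and LD lay below WT without overlap, and PTC2 overlapped with WT at its lower end. Against WT it changed by a log2 of -0.31 in PTC1 (adjusted p = 4.95e-05), with values of 0.11 in PTC2 (adjusted p = 0.114) and -0.29 in LD (adjusted p = 0.000214), or -0.58, -0.17 and -0.28 after local centring, by which PTC2 passed the threshold on the lower side. After scaling to the same median PTC2 instead passed on the higher side, at 0.21. PTC1 was below PTC2 by 0.43 on the log2 scale (-0.43, adjusted p = 4.24e-07) and stayed so after local centring (-0.42).

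Region 2 of Klf2 (72320050 to 72320538), inside the gene and centred 1261 bp from the start, behaved otherwise. It had 294, 385 and 348 normalized reads in PTC1 cells, 488, 586 and 525 in PTC2 cells and 359, 358 and 350 in LD cells, against 379, 367 and 302 in WT cells. PTC2 libraries were above all others, and PTC1 and LD libraries overlapped with WT. On the log2 scale the change was 0.61 in PTC2 (adjusted p = 1.28e-05, 0.33 after local centring), -0.03 in PTC1 (adjusted p = 0.816) and 0.03 in LD (adjusted p = 0.82), and local centring brought PTC1 past the threshold at -0.30. Relative to the start site region, region 2 was 0.50 higher in PTC2 than in WT (adjusted p = 0.0114).

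The Klf4 start site region (chromosome 4, 55532149 to 55534078) had 3008, 3299 and 3379 normalized reads in PTC1 cells, 4047, 3930 and 4006 in PTC2 cells and 3787, 3381 and 3584 in LD cells, against 3735, 4000 and 3834 in WT cells. PTC1 lay below WT, and PTC2 and LD overlapped with it. This gave a log2 change of -0.26 in PTC1 (adjusted p = 5.9e-05), 0.05 in PTC2 (95% interval -0.05 to 0.15) and -0.11 in LD (-0.21 to -0.00), and local centring ended the PTC1 call at -0.11 while PTC2 passed at 0.32 and LD at -0.17. LD also passed at -0.15 without LD replicate 1. Region 2 of Klf4 (55530315 to 55530526), a weak region inside the gene, had 180, 216 and 234 normalized reads in PTC1 cells, 142, 166 and 161 in PTC2 cells and 191, 185 and 166 in LD cells, against 135, 145 and 206 in WT cells. One WT library lay within the range of PTC1 there, and WT overlapped with each mutant. Its log2 change of 0.39 in PTC1 (adjusted p = 0.0216) lost the call without WT replicate 1 or 2 or PTC1 replicate 2 or 3, at 0.27 to 0.36. Relative to the start, region 2 was 0.65 higher in PTC1 than in WT (adjusted p = 0.00721).

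Egr1, the growth factor-induced activator that stands for the family, had a start site that fell in all 3 mutant lines on the deposited scale, where the other 8 did not. Its region (chromosome 18, 34859785 to 34861703) had 3454, 3798 and 3587 normalized reads in PTC1 cells, 4903, 4497 and 4612 in PTC2 cells and 3504, 3108 and 3379 in LD cells, against 5806, 5942 and 5502 in WT cells. WT libraries were above all others, PTC2 was next, and PTC1 overlapped with LD. By limma the log2 change was -0.67 in PTC1 (95% interval -0.77 to -0.57, adjusted p = 1.52e-12), -0.30 in PTC2 (-0.40 to -0.20, adjusted p = 7.33e-06) and -0.79 in LD (-0.89 to -0.69, adjusted p = 1.23e-13).

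Much of chromosome 18 was lower in the mutants as well. The median over its 2337 regions stood at -0.45 for PTC1, -0.28 for PTC2 and -0.55 for LD on the log2 scale, and of the 7 neighbours of Egr1 within 50000 bp, 6 fell in PTC1, 4 in PTC2 and 6 in LD. After local centring Egr1 was at -0.29 in PTC1 (adjusted p = 5.74e-05) and -0.35 in LD (adjusted p = 8.7e-06), while PTC2 lost the call at -0.09 (adjusted p = 0.152) and was at 0.01 after chromosome centring. Locally centred, it was instead the start sites of Klf2 and Ier3 that were called lower in all 3 lines.

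Egr2, which is needed for hindbrain patterning and for myelination by Schwann cells, was more open in both premature stop lines. Its region (chromosome 10, 67536064 to 67538310), centred 1712 bp downstream of the listed start, does not hold that start. The start of the RefSeq gene lies 1595 bp away, but 4 of 5 RefSeq promoter windows of Egr2 lie inside the region. The region also overlaps the RefSeq gene Gm32255. It had 2637, 2710 and 2859 normalized reads in PTC1 cells, 2695, 2431 and 2436 in PTC2 cells and 2362, 2171 and 2279 in LD cells, against 2104, 2155 and 2033 in WT cells. All mutant libraries were above all WT libraries, with PTC1 and PTC2 overlapping. Egr2 had a log2 change of 0.38 in PTC1 (adjusted p = 4.99e-07), 0.26 in PTC2 (adjusted p = 0.000125) and 0.11 in LD (adjusted p = 0.0838), and LD passed at 0.15 without LD replicate 2 and at 0.27 under loess normalization. Of its 8 neighbours 6 rose in PTC1, and local centring moved Egr2 to 0.03 in PTC1, with no call, to 0.20 in PTC2, still called, and to -0.02 in LD.

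Egr3, an EGR gene required for muscle spindles, had the widest spread of group means among the 9 start sites, a range of 1.67 on the log2 scale. Its start site region (chromosome 14, 70076449 to 70076974), centred 491 bp upstream of the start, does not hold the start, which RefSeq places 343 bp away. This region had 317, 329 and 312 normalized reads in PTC1 cells, 116, 134 and 133 in PTC2 cells and 422, 398 and 406 in LD cells, against 266, 256 and 225 in WT cells. No library overlapped with another group: LD was highest, then PTC1, then WT, and PTC2 was lowest. In the limma fit Egr3 changed by 0.36 in PTC1 (95% interval 0.14 to 0.58, adjusted p = 0.0045), -0.96 in PTC2 (-1.18 to -0.74, adjusted p = 7.71e-09) and 0.72 in LD (0.50 to 0.93, adjusted p = 2.4e-06). After local centring PTC2 and LD kept their calls at -1.05 and 0.90, and PTC1 lost it at 0.18 (adjusted p = 0.166). PTC1 exceeded PTC2 by 1.32 (adjusted p = 6.93e-12), and the mean of both was below LD at -1.01 (adjusted p = 9.27e-11).

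A broader and stronger region of Egr3 further upstream did not follow. Region 2 (70074426 to 70075438), centred 2271 bp before the start, had 2648, 2686 and 2844 normalized reads in PTC1 cells, 2406, 2462 and 2452 in PTC2 cells and 2073, 1900 and 2155 in LD cells, against 2164, 2365 and 2284 in WT cells. PTC1 was clearly above WT, while PTC2 lay just above and LD just below the WT libraries, without overlap. Region 2 rose by 0.26 in PTC1 (adjusted p = 0.000117, lost after local centring at 0.09), while PTC2 was at 0.10 (adjusted p = 0.1) and LD at -0.15 (adjusted p = 0.0206). The LD call ended without WT replicate 2 or 3 or LD replicate 2, at -0.15 to -0.10, and was 0.003 under loess normalization and 0.03 after local centring. Relative to the start site region, region 2 was 1.06 higher in PTC2 than in WT (adjusted p = 8.18e-05) and 0.87 lower in LD (-0.87, adjusted p = 0.000838, against 24.9% of pairs called), and in PTC1 the ratio was -0.10 (adjusted p = 0.552).

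**Figure D4:**
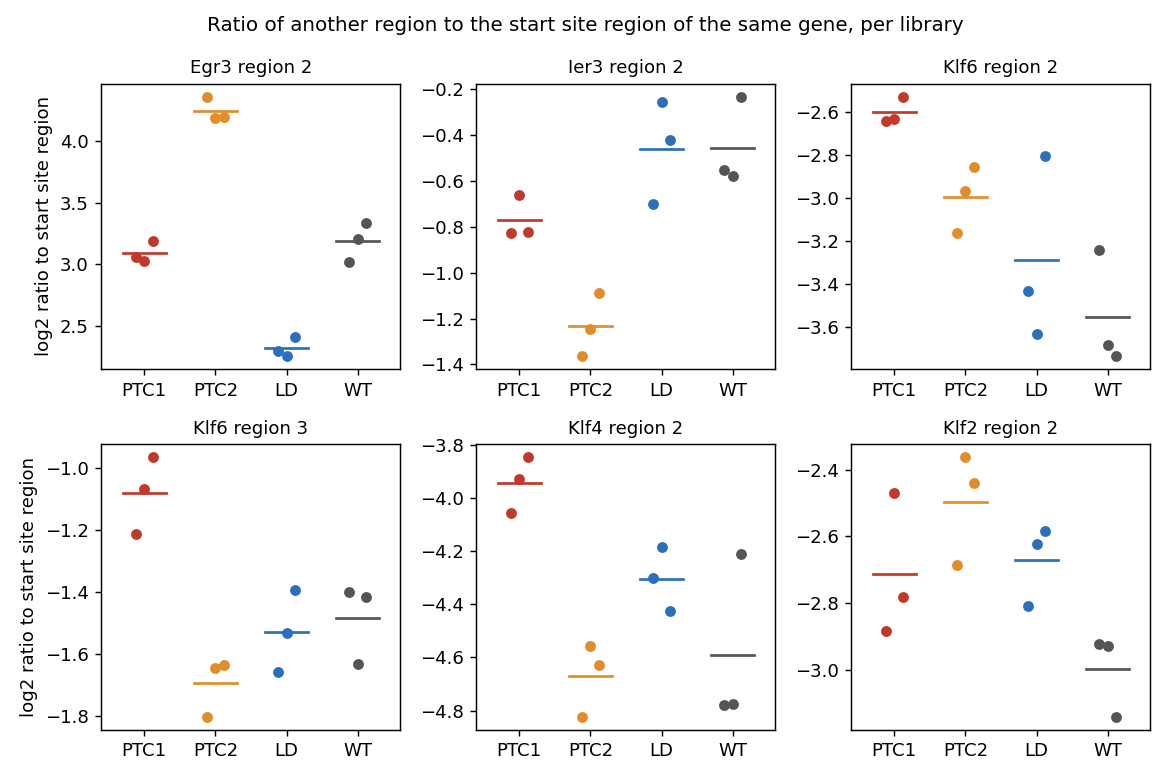
Log2 ratio of another region of a gene to its start site region (y axis, a separate scale in each panel) in PTC1, PTC2, LD and WT, with a point per library and a line at the mean of 3. For Egr3 the PTC2 libraries lie above WT and the LD libraries below it, and for Ier3 the PTC2 libraries lie lowest.

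Ier2, a nuclear protein induced by serum, had 3 regions on chromosome 8, and they moved alike. The start site region (84661509 to 84663065) had 2198, 2234 and 2361 normalized reads in PTC1 cells, 2251, 2105 and 2050 in PTC2 cells and 1846, 1740 and 1841 in LD cells, against 1785, 2009 and 1832 in WT cells. PTC1 and PTC2 were above WT and LD overlapped with WT. Its log2 change was 0.27 in PTC1 (adjusted p = 0.00014), 0.19 in PTC2 (adjusted p = 0.00584) and -0.05 in LD (95% interval -0.17 to 0.07). Region 2 (84663771 to 84664483) rose in PTC1 by 0.27 and in PTC2 by 0.36, region 3 (84664926 to 84665516) by 0.27 and 0.33, the PTC1 call of region 3 being lost at 0.22 without WT replicate 1. Of the 9 neighbours 7 rose in PTC1 and 9 in PTC2, and the median of 159 regions within 1000000 bp was 0.37 and 0.46. After local centring the 3 regions were at -0.09, -0.10 and -0.10 in PTC1 and at -0.26, -0.09 and -0.12 in PTC2, so the sign of Ier2 turned in both lines. The start site was then called lower in PTC2 and in LD (-0.20).

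Ier3, which modulates ERK signalling and apoptosis, lost accessibility in PTC2 at both of its regions. Its start site region (chromosome 17, 35821331 to 35822143) had 1501, 1398 and 1640 normalized reads in PTC1 cells, 1231, 1227 and 1129 in PTC2 cells and 1575, 1379 and 1473 in LD cells, against 1648, 1643 and 1508 in WT cells. PTC2 was below every other library, and PTC1 and LD overlapped with WT. Ier3 changed by -0.42 in PTC2 (adjusted p = 3.73e-06), -0.08 in PTC1 (95% interval -0.22 to 0.05) and -0.12 in LD (-0.25 to 0.02). Local centring gave -0.51 in PTC2 and brought PTC1 (-0.28) and LD (-0.19) past the threshold.

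Region 2 of Ier3 (35819599 to 35820224), centred 1772 bp upstream, fell further. It had 845, 885 and 927 normalized reads in PTC1 cells, 478, 517 and 530 in PTC2 cells and 969, 1155 and 1100 in LD cells, against 1124, 1099 and 1284 in WT cells. PTC2 was lowest at 0.436 times the WT level, PTC1 lay between, and LD overlapped with WT. On the log2 scale this was -0.40 in PTC1 (adjusted p = 5.93e-05), -1.20 in PTC2 (95% interval -1.36 to -1.04, adjusted p = 8.27e-14) and -0.12 in LD (adjusted p = 0.201), or -0.60, -1.29 and -0.20 after local centring, by which LD passed the threshold. Relative to the start site region, region 2 was lower in PTC2 than in WT by a log2 ratio of -0.78 (adjusted p = 0.00117). Of its 12 neighbours 4 rose and 6 fell in PTC2. A pair with no listed gene, at offsets of -22576 and -26413 bp and named after their values were seen, fell furthest in PTC2, at -1.75 and -2.22.

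Between the mutant lines, the mean of PTC1 and PTC2 was higher than LD at 12 of the 17 regions and lower at 3, against 32.1% and 32.6% (64.8% in either direction) of all regions. Local centring left 6 higher and 3 lower, against 29.2% and 29.1% of all regions. Loess normalization left 9 and 4, against 32.2% and 31.8%. Of the 9 start sites 6 were higher and 2 lower, against 45.2% and 21.7% (67%) of start site regions. The counts became 3 and 3 under loess and 4 and 2 under local centring. The median change over all start site regions was 0.12 as deposited, 0.03 under loess and 0.10 under local centring. The 3 regions lower than LD were the Egr3 start site and both Ier3 regions, and the call of the Ier3 start site (-0.13, adjusted p = 0.044) ended without any of PTC1 replicates 1 and 2, PTC2 replicate 3 and LD replicates 1 and 3. Among the 12 higher, both Klf2 regions lost the call without LD replicate 3, and Ier2 region 3 without LD replicate 2. PTC1 was higher than PTC2 at 8 regions and lower at 4, against 31.6% and 30.9% (62.5%) of all regions, and the 4 lower were the Egr1 start site, both Klf2 regions and the Klf4 start site. Of the 9 start sites 3 were higher and 3 lower, against 21.1% and 33.2% (54.3%) of start site regions. The counts became 6 and 3 under loess and 4 and 5 under local centring. The median change over all start site regions was -0.04 as deposited, 0.03 under loess and -0.05 under local centring. Of the 8 higher, region 2 of Egr3 lost the call without PTC1 replicate 3 and region 2 of Klf4 without PTC1 replicate 3 or PTC2 replicate 1.

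Some of the 8 other regions did not keep step with their start sites, which was also common over all pairs. In PTC1 3 ratios were higher than in WT and none lower (Klf4 region 2 and Klf6 regions 2 and 3). The shares over all pairs were 20.1% and 24.4% (44.5% in either direction). In PTC2 3 were higher (region 2 of Egr3, Klf2 and Klf6) and 1 lower (Ier3), against 17.2% and 23.5% (40.6%). In LD none was higher and Egr3 was lower, against 13.2% and 11.7% (24.9%). The mean of PTC1 and PTC2 against LD gave 2 higher (region 2 of Egr3 and Klf6) and 1 lower (Ier3), against 20.3% and 27.3% (47.6%). Of these, the call of Klf6 (0.49, adjusted p = 0.037) ended with a pseudocount of 10 (0.38, adjusted p = 0.0615) and without any one of PTC1 replicates 1 to 3, PTC2 replicates 2 and 3 or LD replicates 1 and 2, down to 0.32 (adjusted p = 0.183). PTC1 against PTC2 gave 3 higher (Klf4 region 2, Klf6 region 3 and Ier3 region 2) and 1 lower (Egr3), against 25% and 23.3% (48.3%), the Ier3 call ending without PTC1 replicate 2 or PTC2 replicate 1. Neither region of Ier2 differed from its start site past the threshold in any of the 5 comparisons.

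Among 10997 genes with a proper symbol and a mean of 50 or more, the likeness of start site regions was measured as the root mean square difference of the 4 group means on the log2 scale after centring. For Klf6 the closest were Tnn (0.0882), with means of 775 in PTC1, 461 in PTC2, 226 in LD and 365 in WT, and Ltbr (0.0955), with 771, 601, 274 and 381 in the same lines. For Egr3 they were Kbtbd6 (0.0744), on the same chromosome, and Dnmt1 (0.0776). For Egr1 they were Zadh2 and Smad2, which both lie on chromosome 18 with Egr1. For Egr2 they were Rps6ka2 and Znf598, for Klf2 Mrps36 and Srd5a1, for Klf4 Smad5 and Dennd10, and for Klf10 Zfp384 and Mzf1. Ier2 was closest to Rangap1 and Agfg1, and Ier3 to Zfp697 and Gcn1. With only 4 group means, many genes can look alike.

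The relatives of these genes did not move as a block. Of 17 other KLF and SP genes 14 had a start site region, and 3 rose and 7 fell in PTC1, 8 rose and 2 fell in PTC2, and 2 rose and 7 fell in LD. Over all 12337 start site regions 33.3% rose and 28.5% fell in PTC1, 37.4% and 16.3% in PTC2, and 16.9% and 29.5% in LD. Klf8, an X-linked repressor, had a mean of 83.3 in PTC1, 473 in PTC2, 560 in LD and 541 in WT, and fell by 2.72 on the log2 scale in PTC1 (adjusted p = 8.1e-17), which local centring left at -2.65. Sp1, a GC-box factor on chromosome 15 like Klf10, was at 0.31 in PTC1, 0.21 in PTC2 and -0.26 in LD, all called, and at -0.19, -0.11 and -0.10 after local centring, and loess normalization ended its calls in PTC2 and LD (0.06 and -0.04). Of the EGR relatives, Egr4 was barely open, at 23.3 in PTC1, 23.7 in PTC2, 4 in LD and 5.67 in WT, and rose by 2.03 in PTC1 (adjusted p = 0.000324) and 2.01 in PTC2 (adjusted p = 0.000397). It was one of 2 with a region among 4 EGR and co-repressor genes, and of 3 other IER genes none rose and 2 fell in PTC1, while PTC2 and LD each had 1 higher and 1 lower.

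A list of 9 genes held serum response factor, its ternary complex and MRTF partners and also Creb1, Crebbp and Ep300. Of the 9, 4 rose and 2 fell in PTC1, 8 rose and none fell in PTC2, and none rose and 3 fell in LD. The medians were 0.10, 0.24 and -0.08 beside 0.03, 0.10 and -0.05 over all start site regions. Creb1, Crebbp and Ep300 were all among the 8 higher in PTC2. In PTC1 Creb1 and Ep300 rose and Crebbp fell, and in LD Ep300 fell. Elk1, a ternary complex factor on the X chromosome, fell by 0.93 in LD (adjusted p = 1.87e-12), which local centring took to -0.03. Mrtfa, the actin-sensing partner of serum response factor, was at 0.34 in PTC1, 0.34 in PTC2 and -0.31 in LD, all called, and at -0.14, 0.13 and -0.22 after local centring. Of 11 ERK cascade genes with a region, PTC1 had 3 higher and 3 lower, PTC2 had 3 higher and 1 lower, and LD had 1 higher and 4 lower. Rps6ka1, a kinase activated by ERK, had means of 947 in PTC1, 579 in PTC2, 199 in LD and 404 in WT, and log2 changes of 1.22, 0.51 and -1.02 (adjusted p = 1.95e-11, 8.52e-05 and 1.85e-09), which stayed at 1.23, 0.42 and -1.16 after local centring.

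Of 10 genes for feedback inhibitors of ERK, 2 rose and 6 fell in PTC1, 3 rose and 1 fell in PTC2, and 2 rose and 5 fell in LD. Dusp2, a nuclear phosphatase of ERK, rose in each line, by 0.66 in PTC1, 1.10 in PTC2 and 0.69 in LD (adjusted p = 1.26e-07, 5.97e-12 and 1.21e-07). Spry1, an inhibitor of receptor signalling, fell in PTC1 (-0.78, adjusted p = 3.14e-06) and rose in LD (1.20, adjusted p = 3.55e-09). Both held after local centring, Dusp2 at 0.78, 1.24 and 0.46, and Spry1 at -0.89 in PTC1 and 1.02 in LD. Of 23 other early response genes with a region, 6 rose and 10 fell in PTC1, 11 rose and 2 fell in PTC2, and none rose and 12 fell in LD. Trib1, a pseudokinase gene on chromosome 15, was at 0.52 in PTC1, 0.23 in PTC2 and -0.37 in LD, all called, and at 0.08, 0.13 and -0.03 after local centring. Csrnp1 fell by 0.72 in PTC1 (adjusted p = 4.39e-14) and was at -0.30 after local centring, still called.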

How the data were processed

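Per the labels' protocols, 12 ATAC-seq libraries of NIH/3T3 cells were sequenced with paired ends, 3 in each of 4 groups. The deposited table gives 1 score per region and library: by its values a read count that the authors scaled by library and rounded, called a normalized read count here. Each region's gene, distance to its start site and fraction within the gene body are also deposited. DESeq2 1.30.1, Picard 2.25.5, STAR 2.7.10a and Trimmomatic 0.39 stand in the submitters' processing notes with the build mm10 and no role. No source used here gives the peak caller or a Tn5 shift.

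Values were put on the log2 scale after adding 1, and limma 3.58.1 (R 4.3.3) fitted a mean per group over all 12 libraries with a trended prior, a procedure checked on simulated data. A mean of at least 5 was required, which kept 81985 regions and left out 10, and tests were two-sided, with Benjamini-Hochberg adjusted p under 0.05 over all of them. Ratios of a gene's other regions to its start site region were fitted the same way over 4092 pairs, a test added after the data had been seen. Of each related gene list, at most 4 genes per comparison, those with the lowest adjusted p, could be named, and the 2 closest genes for likeness. Creb1, Crebbp and Ep300 are named besides, to say what their list holds. Alternatives were other scalings, low filters, a pseudocount of 10, fewer groups in the fit, a replicate block, local and chromosome centring, and each library left out. The genes, lists and tests were chosen with earlier results of these data known. Estimated reads per library were read from the steps in the rounded values.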

Additional observations from a re-analysis of the deposited data

Results flagged for a closer look

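At the Egr3 start site region, which lies wholly upstream of the start, the changes against WT had opposite signs in PTC1 and PTC2. PTC1 exceeded PTC2 by 1.32 on the log2 scale. The difference was 1.23 after local centring, by which the change of PTC1 against WT lost its call (0.18).

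At the Klf6 start site the premature stop lines and LD moved in opposite directions against WT, and the mean of PTC1 and PTC2 exceeded LD by 1.27 on the log2 scale, or 0.85 after local centring.

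At the Klf10 start site PTC1 and PTC2 together exceeded LD by 0.60, again with opposite signs against WT. All 3 differences were tested with limma. It was 0.03 after local centring, and the cause was not tested.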

How the results depend on the processing

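The 85 log2 changes of the 17 regions (5 comparisons each) were counted as kept if their call, and their direction where called, stayed. All 85 were kept without a low filter, with a mean of 20 or more, with a pseudocount of 10 and with the replicate block. The number was 84 with only the groups compared, 74 under loess and 72 under scaling to the same median. Chromosome centring kept 64 and local centring 50. Deviations of same-numbered libraries correlated with a median r of 0.0257 (-0.0165 to 0.0725), slightly above the -0.0114 (-0.0697 to 0.033) of other pairs. None passed 0.1, so the numbers were not taken to pair the libraries. The block changed no count, and of the ratios it ended the call of Klf6 region 2 in PTC2 (0.56, adjusted p = 0.0534).

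The number of regions higher in PTC1 was 4 under local and 7 under chromosome centring, against 26.7% and 28.3% of all regions. In PTC2 5 were higher under local centring (26.1% of all regions) and 12 after scaling to the same median (34.7%). For the mean of PTC1 and PTC2 against LD 6 were higher under local centring (29.2%). In LD 2 were higher under loess (23.4%), and 10 were lower after scaling to the same median (29.2%). With a library left out, 1 to 2 were higher in LD. Scaling to the same median moved the median of all regions by 0.12 for the mean of PTC1 and PTC2 against LD.

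Local centring reversed Klf10 (-0.23), Ier2 (-0.0930) and its regions 2 and 3 (-0.10 and -0.10) in PTC1, Klf2 (-0.17), Klf10 (-0.10), Ier2 (-0.26) and its regions 2 and 3 (-0.0910 and -0.12) in PTC2, and Egr3 region 2 in LD (0.0317). In the mean of PTC1 and PTC2 against LD it reversed Klf2 (-0.0941), Klf2 region 2 (-0.0273) and Ier2 region 3 (-0.0187), and in PTC1 against PTC2 Egr2 (-0.17) and Klf10 (-0.12). Chromosome centring reversed Klf10 in PTC1 (-0.12) and in PTC1 against PTC2 (-0.22), and Egr1 (0.0138) and Ier2 (-0.0393) in PTC2. Loess reversed Egr3 region 2 in LD (0.00273), and in the mean of PTC1 and PTC2 against LD Klf4 (-0.21) and the ratio of Klf4 region 2 (0.36). Changes whose sign turned with no call in either setting are left out here. The cause of the reversals was not tested.

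Shares of all start site regions on the deposited scale are given in brackets. Of 72 related genes, 19 were higher in PTC1 (33.3%), 10 under chromosome and 12 under local centring. In PTC2 35 were higher and 7 lower (37.4% and 16.3%), with 23 higher under chromosome centring, 2 lower after scaling to the same median and 15 lower under loess. In LD 6 were higher and 32 lower (16.9% and 29.5%), with 19 and 13 under loess. In the mean of PTC1 and PTC2 against LD 34 were higher and 10 lower (45.2% and 21.7%), with 18 and 29 under loess and 3 lower after scaling to the same median. In PTC1 against PTC2 6 were higher (21.1%), 16 under loess and 3 under scaling to the same median and both centrings. The median over all start site regions moved with the setting too. Under loess it moved by -0.03 in PTC2, 0.11 in LD, -0.09 in the mean of PTC1 and PTC2 against LD and 0.07 in PTC1 against PTC2. Scaling to the same median moved it by 0.10 in PTC2, 0.12 in that mean against LD and -0.10 in PTC1 against PTC2.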
